A study of Mus musculus with 11 samples.

Results

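Of the 655 microRNA probes of an Illumina bead chip, 4 were chosen by name, mmu-miR-146a, mmu-miR-146b, mmu-miR-155 and mmu-miR-21 (without a star), as microRNAs whose genes NF-κB can switch on. They are written below without the prefix mmu for mouse. Livers came from 5 wild type (WT) FVB/N mice and from 6 LivPGC-1β mice of that strain, in which a transgene raises the coactivator PGC-1β selectively in the liver. All 11 mice were 4 months old, ate standard chow and were fasted overnight. The promoter of this transgene and the sex of the mice are not given in the sources used here. Each array of the single chip held liver RNA of 1 mouse, and numbers such as LivPGC-1β 4 name the mouse as the labels do.

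NF-κB is a transcription factor that toll-like receptors and inflammatory cytokines activate in leukocytes, Kupffer cells and hepatocytes. Among its targets are microRNAs that feed back on the same pathway. miR-146a and miR-146b repress TRAF6 and IRAK1, proteins that carry the signal from toll-like receptors, and so dampen it. miR-155 is made from a host transcript that rises in activated macrophages and lymphocytes, and among its targets is SOCS1, an inhibitor of cytokine signalling. miR-21, one of the most abundant microRNAs of many tissues, also responds to STAT3 and represses PDCD4. A mature microRNA finds its targets mainly through its seed, the bases 2 to 8 from the 5′ end, so microRNAs with 1 seed can bind the same sites.

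The 4 mature sequences show which members are near copies of each other. Each is written 5′ to 3′ from RefSeq (build GRCm38.p6) with the seed in capitals, and all 4 names found an entry there.
miR-146a: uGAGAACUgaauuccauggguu
miR-146b: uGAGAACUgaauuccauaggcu
miR-155: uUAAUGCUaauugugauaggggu
miR-21: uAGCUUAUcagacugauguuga
miR-146a and miR-146b hold the same bases at 20 of 22 positions and share the seed, which no other mature microRNA of the RefSeq table has. Counted from the 5′ end, they differ by G18A and U21C, where the base of miR-146a stands first. The seeds of miR-155 and miR-21 differ from it and from each other, and only miR-21c in the table shares the seed of miR-21. How far the chip's probes tell miR-146a from miR-146b at those 2 positions was not tested.

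The 4 microRNAs lie at 4 separate places of the genome (GRCm38.p6). miR-146b is read from the plus strand at chr19:46342790-46342811, inside the lncRNA Gm36493 and nearest to the protein-coding gene Cuedc2. miR-146a is read from the minus strand at chr11:43374435-43374456, with no overlapping gene in the annotation and Pttg1 as the nearest protein-coding gene. miR-155 is read from the plus strand at chr16:84714143-84714165 within its host lncRNA, Mir155hg. miR-21 is read from the minus strand at chr11:86584120-86584141 and overlaps Vmp1, a protein-coding gene of autophagy.

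The genotypes overlapped in the number of probes detected, but the LivPGC-1β arrays tended to be dimmer. Before normalization, median intensity ran from 743 to 1036 over the WT arrays and from 619 to 871 over the LivPGC-1β arrays, and 467 to 494 and 444 to 508 probes were detected (detection p of 0.01 or less). The values below are quantile-normalized intensities on the log2 scale. Tests across the chip were run with limma over the 493 probes detected on at least 5 arrays, with Benjamini-Hochberg adjustment over those 493. Without normalization, 6 of the 493 probes were higher and 80 lower in LivPGC-1β mice at an unadjusted p under 0.05 (limma). The number of arrays limits the precision. miR-122, the defining microRNA of hepatocytes, was the fourth or the fifth brightest probe on every array, which shows its presence but not equal levels, since quantile normalization fixes such values by rank. All 4 members were detected on all 11 arrays, each time with the smallest detection p of the table, 3.68e-38. Levels of different probes are not compared, since probes differ in how brightly they bind.

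miR-146b was higher in LivPGC-1β livers, miR-155 was higher by about as much but with a wider spread and no call, and miR-146a and miR-21 differed by 0.02 and -0.01 after quantile normalization. Of the 4 members 1 was called at an adjusted p under 0.05, against 10 of all 493 tested probes (2.03%), and of those 10, 8 were higher in LivPGC-1β mice (1.62% of the probes tested). The median difference of the 4 members was 0.23 on the log2 scale, beside 0.01 over all tested probes. miR-146b and miR-155 were among the microRNAs that the study drew in its heatmap of these arrays, so their values are no independent evidence.

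miR-146b stood at 11.36, 11.41, 11.53, 11.49 and 11.30 in WT mice 1 to 5. In LivPGC-1β mice 1 to 6 it stood at 11.83, 11.70, 12.07, 11.56, 11.89 and 12.05. The groups did not overlap, with LivPGC-1β 4 closest to the WT mice and LivPGC-1β 3 and 6 at the top. LivPGC-1β values above every WT value were found for 17 of the 493 probes (3.45%), and groups that did not overlap in either direction for 23 (4.67%). The means were 11.42 ± 0.09 (SD, n = 5) and 11.85 ± 0.20 (SD, n = 6), a difference of 0.43 (SE 0.092, 95% interval 0.23 to 0.64), or 1.35-fold. limma gave an adjusted p of 0.0449, and the two-sided exact permutation test of this microRNA alone gave p = 0.00433, where the smallest p the design allows is 0.00216.

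The call of miR-146b lay near the threshold and depended on the processing. Of 14 alternatives that kept all mice, 7 lost it. It was kept with cyclic loess and with the authors' table, which is quantile-normalized as the main fit is. It was lost after scaling to the array median (limma, adjusted p = 0.118), with normexp background correction (adjusted p = 0.0527) and without normalization. Without normalization the difference was 0.21 and limma's adjusted p was 0.425, while the median over all tested probes then moved to -0.14. In the deposited intensities, WT mice 1 to 5 read 3114, 3090, 3124, 2890 and 2487, and LivPGC-1β mice 1 to 6 read 4157, 2569, 4188, 2649, 3269 and 3935. On that scale LivPGC-1β 2 and 4 lay among the WT mice and the other 4 above them. Leaving out any 1 mouse kept the difference between 0.39 and 0.48, but the call remained only without LivPGC-1β 2 (limma, adjusted p = 0.0486) or LivPGC-1β 4 (adjusted p = 0.0102).

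miR-146a, which shares its seed with miR-146b, stood at 13.51, 13.53, 13.56, 13.53 and 13.43 in WT mice 1 to 5. It stood at 13.45, 13.53, 13.65, 13.49, 13.58 and 13.49 in LivPGC-1β mice 1 to 6. The groups overlapped, and only LivPGC-1β 3 and 5 lay above every WT mouse. The means were 13.51 ± 0.05 (SD, n = 5) and 13.53 ± 0.07 (SD, n = 6), a difference of 0.02 with a 95% interval from -0.07 to 0.11 (limma, adjusted p = 0.866, and p = 0.593 in the exact permutation test). Its deposited intensities ran from 10912 to 12339 in WT and from 10209 to 13163 in LivPGC-1β mice, and its difference was -0.037 without normalization and 0.21 after scaling to the array median (limma, adjusted p = 0.773 and 0.293), where the median of all tested probes moved to 0.11.

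miR-155 stood at 10.77, 10.81, 10.42, 10.62 and 10.05 in WT mice 1 to 5. In LivPGC-1β mice 1 to 6 it stood at 11.44, 10.99, 10.98, 10.50, 11.01 and 10.99. All LivPGC-1β mice but the fourth lay above every WT mouse, LivPGC-1β 1 was the highest and WT 5 the lowest. The means were 10.53 ± 0.31 (SD, n = 5) and 10.98 ± 0.30 (SD, n = 6), a difference of 0.45 (SE 0.173, 95% interval 0.07 to 0.84), or 1.37-fold. It did not pass over the chip (limma, adjusted p = 0.307, unadjusted p = 0.0261), and the exact permutation test of miR-155 alone gave p = 0.0368. An unadjusted p under 0.05 with the higher level in LivPGC-1β mice was found for 50 of the 493 probes (10.1%), and in either direction for 62 (12.6%). Leaving out 1 mouse moved the difference between 0.33 (without WT 5) and 0.55 (without LivPGC-1β 4), with no call in any of these fits.

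miR-21 gave almost no information on this scale. It was the third brightest probe on all arrays except LivPGC-1β 4, where it was the fourth, and quantile normalization gives every array the same value at a given rank. It therefore stood at 14.80 on 10 arrays and at 14.73 on LivPGC-1β 4, a mean difference of -0.01 (95% interval -0.06 to 0.04, limma, adjusted p = 0.884). The deposited intensities did vary, at 30052, 29280, 28716, 29225 and 28519 in WT mice 1 to 5. They were 30514, 25808, 29171, 25916, 26933 and 29721 in LivPGC-1β mice 1 to 6, with LivPGC-1β 2, 4 and 5 below every WT mouse and LivPGC-1β 1 above. Scaling each array to its median gave a difference of 0.18 in the other direction (limma, adjusted p = 0.297), so no direction is given for miR-21.

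**Figure D1:**
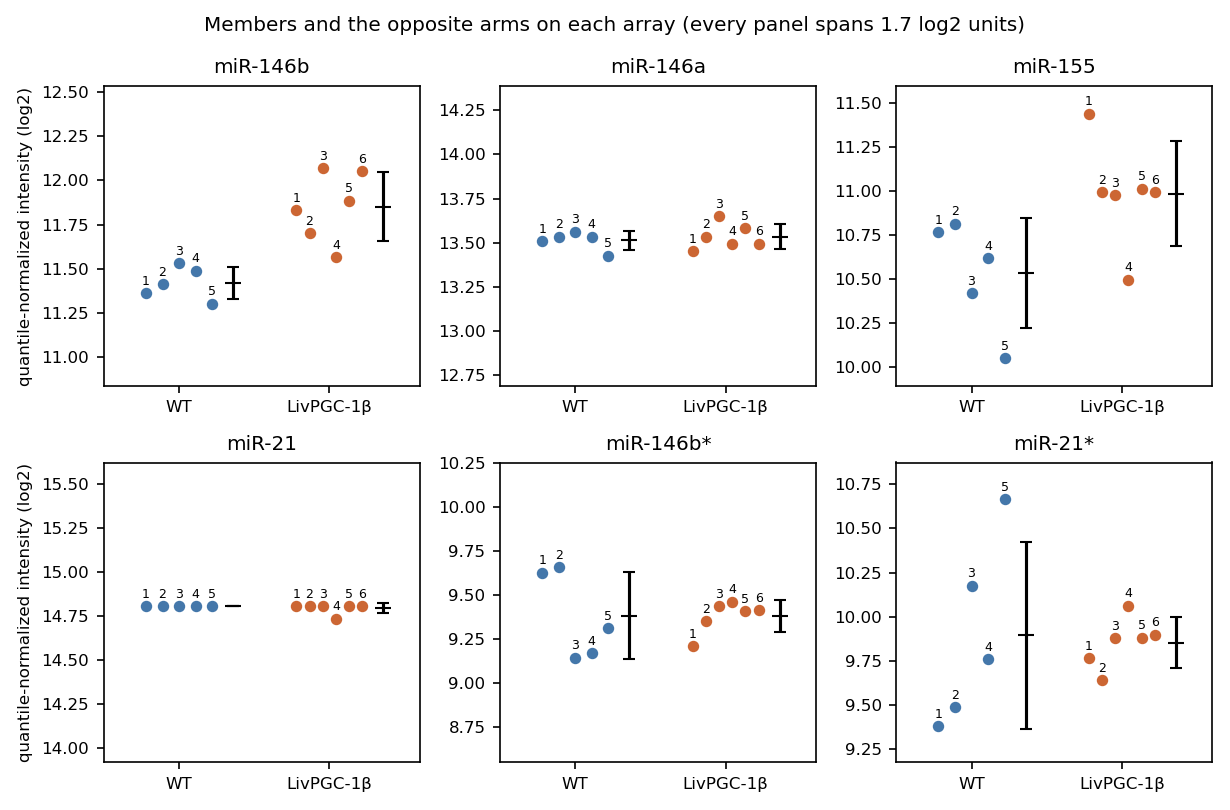
Quantile-normalized log2 intensity of the 4 members and of miR-146b* and miR-21* on each of the 11 arrays, 1 panel per probe, with mouse numbers above the points and the mean ± SD of each genotype as a black bar beside them. The genotypes separate for miR-146b, overlap in 1 mouse for miR-155 (LivPGC-1β 4) and overlap for the others, and miR-21 lies on a single value apart from LivPGC-1β 4.

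Whether the other members moved with miR-146b was tested within each array, by subtracting the log2 value of the other microRNA from that of miR-146b. A shift common to the whole array cancels in this quantity. A change that depends on intensity, such as quantile normalization can make, does not cancel. A two-sided exact permutation test compared it between genotypes, with adjustment over the 3 comparisons. After quantile normalization miR-146b differed between genotypes by more than miR-146a, and its difference could not be told from that of miR-155. The comparison with miR-21, whose value was fixed by its rank, largely repeats the difference of miR-146b itself. Without normalization miR-146b exceeded miR-146a by 0.25 and miR-21 by 0.27, and neither passed after adjustment (exact permutation test, adjusted p = 0.0714 for each).

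Against miR-146a, the quantity was -2.15, -2.12, -2.03, -2.05 and -2.12 in WT mice 1 to 5. It was -1.62, -1.83, -1.58, -1.93, -1.70 and -1.44 in LivPGC-1β mice 1 to 6. Every LivPGC-1β mouse lay above every WT mouse. The means were -2.09 ± 0.05 (SD, n = 5) and -1.68 ± 0.18 (SD, n = 6), so miR-146b gained 0.41 on its near copy (95% interval 0.22 to 0.60, exact permutation p = 0.00433, adjusted p = 0.00649). Without normalization the gain was 0.25 (95% interval 0.03 to 0.45), 4 of the 6 transgenic mice exceeded all WT mice, and the exact permutation p was 0.0346 (adjusted p = 0.0714).

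Against miR-21, the gain of miR-146b was 0.44 (95% interval 0.24 to 0.64, exact permutation p = 0.00433, adjusted p = 0.00649), and again all 6 LivPGC-1β mice lay above every WT mouse. The value of miR-21 was fixed by its rank here, so this comparison adds little to the difference of miR-146b itself. Without normalization, where miR-21 was free to vary, the gain was 0.27 (95% interval 0.01 to 0.53, exact permutation p = 0.0476, adjusted p = 0.0714), and 4 of the 6 transgenic mice exceeded all WT mice.

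Against miR-155, the quantity was 0.59, 0.60, 1.11, 0.87 and 1.25 in WT mice 1 to 5. In LivPGC-1β mice 1 to 6 it was 0.39, 0.71, 1.09, 1.07, 0.87 and 1.06. The groups overlapped almost wholly. The difference was -0.02 with a 95% interval from -0.43 to 0.39 (exact permutation p = 0.903), so a gap of either sign about as large as the rise of miR-146b itself remained within the interval.

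**Figure D2:**
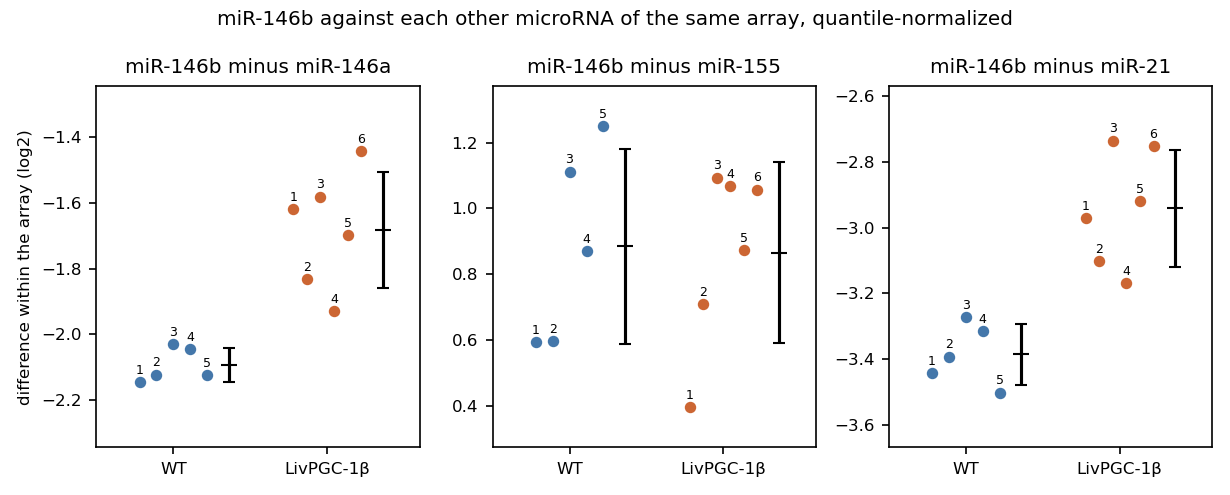
Log2 value of miR-146b minus that of miR-146a, miR-155 or miR-21 on the same array (quantile-normalized, 1 point per mouse with its number, black bars mean ± SD of each genotype). All 6 LivPGC-1β mice lie above all 5 WT mice in the panels for miR-146a and miR-21, while the genotypes overlap in the panel for miR-155.

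The opposite arm of a hairpin, named with a star on this chip, is cut from the same precursor as the guide arm. The chip carries a probe for miR-146b* and one for miR-21*. The RefSeq precursor of miR-146b (plus strand, chr19:46342762-46342870, GRCm38.p6) is shown because 2 of the probes read it, and both mature arms are in capitals, miR-146b first and miR-146b* second.
miR-146b hairpin: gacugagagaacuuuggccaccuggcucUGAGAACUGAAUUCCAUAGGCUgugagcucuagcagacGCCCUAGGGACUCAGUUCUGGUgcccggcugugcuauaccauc
miR-146b* stood at 9.63, 9.66, 9.15, 9.17 and 9.31 in WT mice 1 to 5. In LivPGC-1β mice 1 to 6 it stood at 9.21, 9.35, 9.44, 9.46, 9.41 and 9.41. The LivPGC-1β mice lay within the range of the WT mice. The difference in means was -0.0015 (95% interval -0.23 to 0.23, limma, adjusted p = 0.998), with a WT SD of 0.25 (n = 5).

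Whether the arms of the miR-146b hairpin changed by unequal amounts was tested within arrays, a comparison chosen after these values were seen. The guide arm gained 0.43 on the star arm (95% interval 0.06 to 0.80, exact permutation p = 0.0260), and 4 of the 6 transgenic mice exceeded all WT mice. Adjusted over the 2 hairpins the p was 0.0519. It ran from 0.0390 with cyclic loess to 0.121 with normexp background correction, and from 0.0286 to 0.0952 when 1 mouse was left out, so the call turned on the processing.

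miR-21* stood at 9.38, 9.49, 10.17, 9.76 and 10.67 in WT mice 1 to 5, and at 9.77, 9.64, 9.88, 10.06, 9.88 and 9.90 in LivPGC-1β mice 1 to 6. WT 5 and WT 3 lay above all LivPGC-1β mice and WT 1 and WT 2 below all of them. The difference was -0.04 (95% interval -0.51 to 0.43, limma, adjusted p = 0.962). miR-21 gained 0.03 on miR-21* within arrays (95% interval -0.44 to 0.54, exact permutation p = 0.881).

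The processing touched the 4 members unequally. miR-146b and miR-155 kept the higher level in LivPGC-1β mice under every alternative run. miR-146a and miR-21 did not keep 1 sign, and none of the alternatives called them. With chip position as a covariate no probe of the chip was called, and the differences of miR-146b and miR-155 became 0.33 and 1.04 (limma, adjusted p = 0.667 and 0.572).

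**Figure D3:**
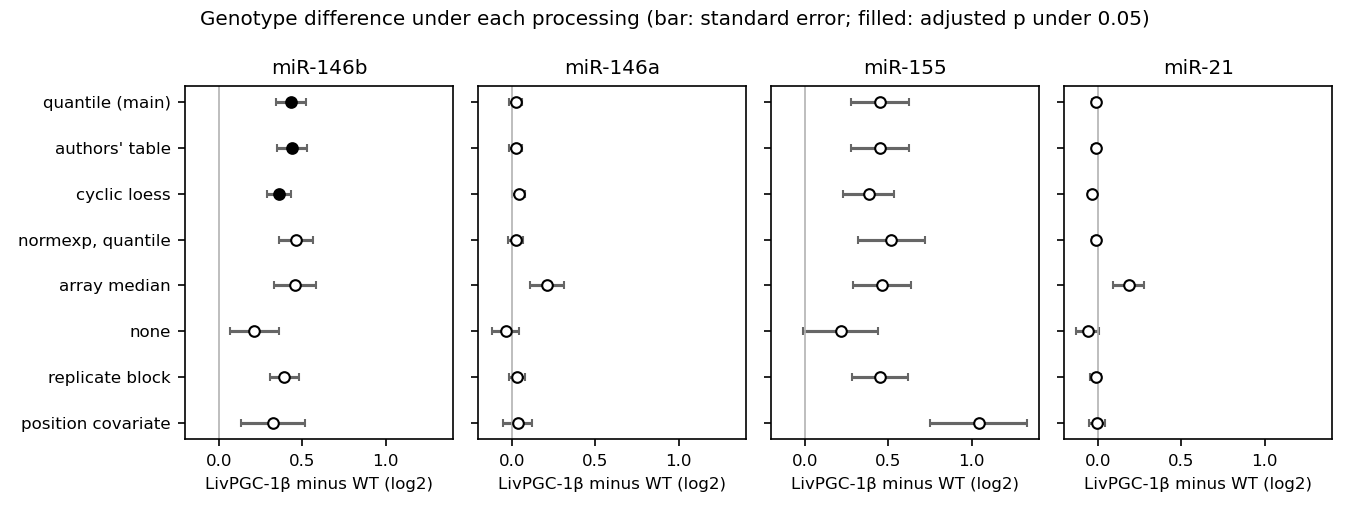
LivPGC-1β minus WT on the log2 scale for each member under 8 ways of processing, with the standard error as a bar and a filled point where limma's adjusted p was under 0.05. miR-146b runs from 0.21 without normalization to 0.46 after scaling to the array median or normexp, miR-155 lies above 0 throughout with open points, and miR-146a and miR-21 run from -0.061 to 0.040 except after scaling to the array median, where they reach 0.21 and 0.18.

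Genotype and place on the chip went together, since positions 1 to 5 held the WT arrays and positions 6 to 11 the transgenic arrays. Position and genotype cannot be told apart except through a trend within both groups. Along the positions, with genotype in the same fit, miR-155 fell by 0.107 per step on the log2 scale (SE 0.045, limma, unadjusted p = 0.0417, adjusted p = 0.863). Its deposited intensity was lower at each successive WT position, at 2180, 1896, 1605, 1494 and 1138, and among LivPGC-1β mice it was 3249 at the first position and 1556, 2112, 1305, 1841 and 1741 at the later ones. On the quantile-normalized scale the WT values did not fall at every step, at 10.77, 10.81, 10.42, 10.62 and 10.05. miR-21* rose by 0.132 per step (SE 0.054, limma, unadjusted p = 0.0375, adjusted p = 0.863), and its genotype difference with position in the fit was -0.77 (adjusted p = 0.667), against -0.04 without. The slope of miR-146b was 0.02 per position (SE 0.030). Slopes with an unadjusted p under 0.05 were found for 26 of the 493 probes (5.27%), and 0 passed after adjustment. With the position in the fit, the change of miR-146b minus that of miR-155 within arrays was -0.71 (permutation p = 0.0150, adjusted p = 0.0451), where without it the 2 could not be told apart.

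**Figure D4:**
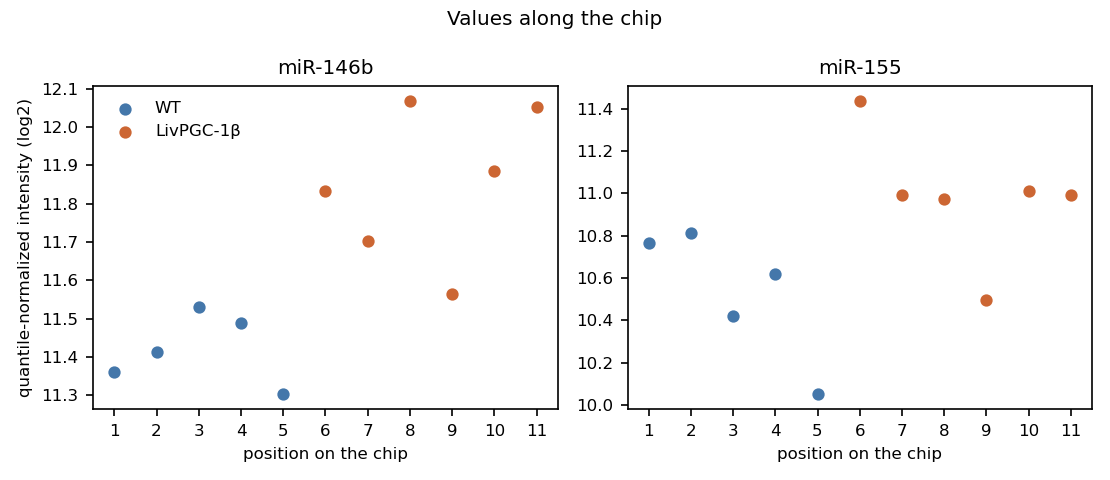
Quantile-normalized log2 intensity of miR-146b (left) and miR-155 (right) against the position of the array on the chip, with WT at positions 1 to 5 and LivPGC-1β at positions 6 to 11, 1 point per mouse. miR-155 declines from 10.77 and 10.81 at the first 2 WT positions to 10.05 at the fifth, and is highest (11.44) at the first LivPGC-1β position. miR-146b runs from 11.30 to 11.53 over the WT positions and from 11.56 to 12.07 over the LivPGC-1β positions, where genotype and position change together.

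Within genotypes, no correlation between members passed after adjustment on the quantile-normalized scale. Over the 11 arrays, with each genotype centred on its own mean, miR-146b and miR-146a gave r = 0.54 (permutation p = 0.145) and rho = 0.61 (permutation p = 0.0707), or adjusted p-values of 0.335 and 0.424 over the 6 pairs of members. Without LivPGC-1β 3 and 6, the mice farthest from the median of miR-146b, r was 0.55. miR-146b and miR-155 gave r = 0.38 (permutation p = 0.281, adjusted p = 0.422) and rho = 0.11 (permutation p = 0.769, adjusted p = 0.988), and r was 0.58 without those 2 mice. Leaving out single mice moved both values, to 0.31 for miR-146a without LivPGC-1β 3 and 0.75 without LivPGC-1β 6, and to -0.0099 for miR-155 without LivPGC-1β 4. The r of 0.66 between miR-146b and miR-21 (permutation p = 0.168, adjusted p = 0.335) rested on LivPGC-1β 4, the only array where miR-21 had another value. Its rho was 0.40 (permutation p = 0.332, adjusted p = 0.668). The 3 pairs without miR-146b had r from 0.15 to 0.59, with adjusted p-values of 0.335 or more.

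The correlations were higher where arrays kept their own brightness. Without normalization miR-146b gave r = 0.95 with miR-146a, 0.77 with miR-155 and 0.92 with miR-21, each with a permutation p adjusted to 0.00675 over the 6 pairs. After scaling to the array median the same pairs gave 0.71 (adjusted permutation p = 0.0448), 0.54 and 0.51. The brightness of the whole array enters both values of a pair without normalization, and its part in these correlations was not tested.

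The probes whose pattern over the 11 arrays was most like that of each member are given as a description, by Pearson's r on the quantile-normalized log2 scale. The arrays share 1 chip and 2 genotypes, so a difference between genotypes adds to r. For miR-146b they were miR-30e* (r = 0.91), miR-30d (0.90) and miR-101b (0.90), and of these miR-30e* was itself called, with a difference of 0.29 (limma, adjusted p = 0.00747). With genotypes centred the 3 values fell to 0.66, 0.72 and 0.70. For miR-155 they were miR-218 (0.89), miR-295 (0.88) and miR-181c (0.87), none of them called. For miR-146a they were miR-29a (0.77), miR-16 (0.76) and miR-98 (0.74). For miR-21 they were miR-485* (0.87), miR-351 (0.77) and miR-804 (0.73), all set by LivPGC-1β 4 alone. The lists of the 4 members had no probe in common.

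A list of other microRNAs linked to inflammation held 15 names, among them miR-9, miR-132, miR-147, miR-187 and miR-210, which toll-like receptor signals or hypoxia raise in myeloid cells, and miR-125a-5p, miR-125b-5p and let-7i, which act on cytokine or toll-like receptor signalling. Of the 14 tested (miR-147 was detected on too few arrays), 0 were called by limma, and at an unadjusted p under 0.05 there were 2 higher and 0 lower, near the shares over all tested probes (2.03% called, and 10.1% higher unadjusted). The median difference of the 14 was 0.03, with a range from -0.36 for miR-212 to 0.39 for miR-181c, beside a median of 0.01 over all tested probes. The 2 were miR-181c (difference 0.39, adjusted p = 0.202) and miR-187 (difference 0.24, adjusted p = 0.203). miR-187 was called only when WT 3 was left out (difference 0.32, adjusted p = 0.0346). The summed intensity of the list ran from 128790 to 134980 in WT and from 126897 to 133808 in LivPGC-1β mice, and 0 of the 6 transgenic mice exceeded all WT mice.

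The members are made by several cell types of the liver, and in whole tissue fewer cells of a type and less of a microRNA per cell cannot be told apart. Markers of leukocytes (miR-142-3p, miR-142-5p, miR-223, miR-150, miR-342-3p and miR-342-5p) were all detected and 0 of 6 were called by limma, with 1 higher at an unadjusted p under 0.05 (miR-150, difference 0.19, adjusted p = 0.112). With 2.03% of all tested probes called and 10.1% higher unadjusted, these counts say nothing particular of leukocytes. Their differences ran from 0.01 to 0.19. Their summed intensity ran from 61221 to 67705 in WT and from 64845 to 70166 in LivPGC-1β mice, with 3 of 6 above every WT mouse. Of the 6, miR-142-3p and miR-223 differed by 0.02 and 0.01 (limma, adjusted p = 0.893 and 0.950), toward the low end of that range. They were named after their values were seen and do not stand for the list.

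Of the 4 tested markers of stellate cells and fibroblasts, 0 were called by limma and 2 were higher at an unadjusted p under 0.05, miR-143 by 0.10 (adjusted p = 0.202) and miR-214 by 0.21 (adjusted p = 0.317), beside 2.03% called and 10.1% higher unadjusted over all tested probes. The summed intensity of the 4 ran from 53286 to 59281 in WT and from 58880 to 62469 in LivPGC-1β mice, with 5 of 6 above every WT mouse. The part of these cells or of leukocytes in the higher miR-146b was not tested. In the lists for hepatocytes (5 tested), erythroid cells (3), endothelium (2), bile duct epithelium (5) and muscle (3), 0 members were called by limma, and at an unadjusted p under 0.05 there was 1, in the hepatocyte list. The hepatocyte sum ran from 103668 to 105178 in WT and from 103513 to 105953 in LivPGC-1β mice, with 5 of 6 above every WT mouse. How often sums of other probes exceed every WT mouse was not counted. A shift in cell content was therefore not tested by these sums. The muscle sum ran from 1168 to 39344 in WT and from 1349 to 5692 in LivPGC-1β mice, so the WT livers differed widely in it.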

How the data were processed

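Liver RNA of 5 WT and 6 LivPGC-1β mice was hybridised by the authors to 1 Illumina Universal MicroRNA BeadChip. The deposited intensity of each of 655 probes is the average bead signal from Genome Studio, neither normalized nor background subtracted, and the authors deposited a detection p-value beside it. The authors' quantile-normalized intensity table served as an alternative. All 655 probes are in both tables. Following the paper's methods, the arrays were quantile normalized together and log2 values taken. The 493 probes detected (p not above 0.01) on 5 or more arrays entered limma 3.58.1 (R 4.3.3), with p-values adjusted by Benjamini-Hochberg with a threshold of 0.05. The methods name no test for the arrays. Exact permutation tests used all 462 splits of the 11 arrays, and their 95% intervals hold the differences the test did not reject. The test with chip position and the correlations used 100000 permutations (within genotype for correlations). No sample was dropped, and no source says more than that each sample is a separate mouse. The fit was tested on simulated data. Python 3.11.15 drew the figures.

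The members, the lists and the tests were chosen with earlier results of these data known. Named were the 4 members, their opposite arms, called list members and the 3 probes most like each member. List members named beyond these were chosen after their values were seen. Alternatives were other normalizations, background correction, detection filters, variance models, a replicate block, chip position and leaving out each mouse.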

Additional observations from a re-analysis of the deposited data

Results flagged for a closer look

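miR-21 in LivPGC-1β mouse 4 stood at 14.73 while the other 5 LivPGC-1β mice all stood at 14.80, so its gap to the nearest mouse made up the whole range of the group (a gap over range of 1.0). The probe was the fourth brightest on that array and the third brightest on the others. Of groups without any true outlier about 1 in 20 would be marked this way where values vary freely, and 18 groups were examined. That rate does not apply here. The other 5 values were tied by rank, so a single array with another rank gives a gap over range of 1.0.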

How the results depend on the processing

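The count of called probes, 10 with the main processing, was 0 without normalization, 4 after scaling to the array median, 1 with the replicate block and 0 with chip position as a covariate, and between 4 (without WT 1) and 13 (without LivPGC-1β 4) when 1 mouse was left out. It was also low without LivPGC-1β 1 (5) and LivPGC-1β 3 (6). At an unadjusted p under 0.05, limma had 86 probes without normalization and 35 with chip position, against 62. Without normalization the median of all probes was -0.14, after scaling to the array median 0.11.

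miR-146b stayed higher in every alternative but lost its call without normalization (0.21), after scaling to the array median (0.46), with normexp (0.46, adjusted p = 0.0527), without a detection filter (0.43, adjusted p = 0.0512), with detection on at least 1 array (0.43, adjusted p = 0.0508), with the replicate block (0.39) and with chip position (0.33). Its adjusted p ran from 0.0236 to 0.667 over these alternatives. With 1 mouse left out it ran from 0.39 to 0.48 (adjusted p from 0.0102 to 0.117). miR-155 was never called (adjusted p from 0.117 to 0.574). miR-146a turned to -0.037 without normalization, was 0.21 after scaling to the array median, and ran from -0.0010 to 0.038 with 1 mouse left out. miR-21 turned to 0.18 after scaling to the array median and ran from -0.014 to 0 with 1 mouse left out. miR-146b* turned to 0.0025 after scaling to the array median, 0.0075 with normexp and 0.10 with chip position, and ran from -0.060 to 0.063 with 1 mouse left out, where miR-21* ran from -0.17 to 0.15. miR-21* was -0.77 with chip position and -0.30 without normalization, where miR-146b* was -0.24.

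The gain of miR-146b on miR-146a fell short of the threshold without normalization or after scaling to the array median (0.25 in both), with the replicate block (0.36) and with chip position (0.29), and its gain on miR-21 under the same settings (0.27, 0.27, 0.41 and 0.33). With 1 mouse left out these gains ran from 0.36 to 0.46 and from 0.40 to 0.48, and each kept an adjusted p of 0.0143 or less. The difference from miR-155 passed the threshold only with chip position (-0.71) and ran from -0.095 to 0.086 with 1 mouse left out. With 1 mouse left out the gain of miR-21 on miR-21* ran from -0.16 to 0.16 (0.24 without normalization or after scaling to the array median), and the r of miR-146b with miR-155 from -0.0099 (without LivPGC-1β 4) to 0.48. Without normalization miR-146b gave r = 0.95 with miR-146a, 0.77 with miR-155 and 0.92 with miR-21, and 0.71 with miR-146a after scaling to the array median, all past the threshold. The r with miR-21 could not be computed without LivPGC-1β 4. The cause of these changes was not tested.

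Samples with the same replicate number did not deviate together (correlations from -0.13 to 0.07 over 5 pairs, and in 0 of 5 pairs did both correlate best with each other). No pairing was therefore assumed, and the sources used here give none. With the replicate block limma called 1 probe and gave miR-146b 0.39 (adjusted p = 0.203). The block's within-array tests rest on 5 pairs, which allow no p below 0.0625.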
